A study of Mus musculus with 6 samples.

Results

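The genes described here carry a cell into mitosis and through it: 50 genes for mitotic entry, chromosome condensation, the kinetochore, the spindle assembly checkpoint, the release of sister chromatids, the spindle and cytokinesis. They were listed by name for their roles, with earlier results of these data known, and all 50 were found among the 43346 genes of the count table. RNA-seq measured polyadenylated RNA of primary mouse adult fibroblasts (MAFs), wild-type cells from ear tissue of female adult mice (strain C57BL6/J), grown at 3% oxygen, in 3 control and 3 senescent samples. Senescence was induced with 20 Gy of X-rays some weeks before collection, and the controls had a sham irradiation. Both groups were given 100 nM dexamethasone, a glucocorticoid that sets the circadian clocks of cultured cells to one phase, for 2 h and were collected 12 h later, so all values belong to a single time point. The irradiated cultures are a model of senescence after DNA damage in a dish. The labels do not say whether the replicates came from separate cultures or animals, so p-values measure the spread between these samples, which may be technical.

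Mitotic genes are switched on late in the cell cycle. In resting cells a complex called DREAM, built around the MuvB core, holds them silent. In cycling cells MuvB joins B-MYB (*Mybl2*) and then FOXM1, and the same genes are transcribed in G2. CDK1 with cyclin B starts mitosis, condensin compacts the chromosomes, kinetochores bind them to the spindle, and the checkpoint holds back the anaphase-promoting complex (APC/C) until every chromosome is attached. The APC/C then marks securin and the cyclins for destruction, separase opens cohesin, and a contractile ring divides the cell. Cellular senescence is a stable arrest of this cycle, held by the inhibitors p21 and p16.

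Many promoters of this class hold a short element, the CHR (cell cycle genes homology region, TTTGAA), to which MuvB binds, with CCAAT boxes nearby. RefSeq promoter windows of 250 bases before to 50 bases after the annotated start (build GRCm38.p6) were matched to 41 of the 50 genes, 1 of them under another symbol (*Sgol1* as *Sgo1*). They are printed for 6 genes from 120 bases before to 30 bases after the start: *Cdk1*, *Ccnb2*, *Cenpf*, *Cdc20* and *Racgap1* because they hold TTTGAA close to the start, and *Bub3* because it does so too but was the gene least reduced in senescent cells. The windows lie at chr10:69352883-69353032 (*Cdk1*), chr9:70421525-70421674 (*Ccnb2*), chr1:189688057-189688206 (*Cenpf*), chr4:118437314-118437463 (*Cdc20*) and chr15:99651627-99651776 (*Racgap1*), all on the minus strand, and at chr7:131560250-131560399 on the plus strand (*Bub3*). Each is written 5′ to 3′ in the direction of its gene, and capitals mark TTTGAA and CCAAT or their reverse complements, TTCAAA and ATTGG.
Cdk1: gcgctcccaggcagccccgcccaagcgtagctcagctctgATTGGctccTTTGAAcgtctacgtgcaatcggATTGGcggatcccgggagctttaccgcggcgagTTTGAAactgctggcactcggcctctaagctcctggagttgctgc
Ccnb2: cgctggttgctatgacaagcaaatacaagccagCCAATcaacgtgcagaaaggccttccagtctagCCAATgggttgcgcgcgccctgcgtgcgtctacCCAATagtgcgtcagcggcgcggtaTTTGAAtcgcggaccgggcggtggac
Cenpf: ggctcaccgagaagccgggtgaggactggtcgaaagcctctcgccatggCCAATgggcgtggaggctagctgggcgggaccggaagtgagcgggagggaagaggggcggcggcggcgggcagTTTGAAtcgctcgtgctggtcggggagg
Cdc20: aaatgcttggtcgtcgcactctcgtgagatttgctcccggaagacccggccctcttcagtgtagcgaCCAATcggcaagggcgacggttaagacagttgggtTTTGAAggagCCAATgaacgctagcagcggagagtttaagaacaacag
Racgap1: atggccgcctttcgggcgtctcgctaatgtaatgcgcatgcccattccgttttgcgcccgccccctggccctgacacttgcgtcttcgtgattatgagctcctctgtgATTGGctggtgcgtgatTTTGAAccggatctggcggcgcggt
Bub3: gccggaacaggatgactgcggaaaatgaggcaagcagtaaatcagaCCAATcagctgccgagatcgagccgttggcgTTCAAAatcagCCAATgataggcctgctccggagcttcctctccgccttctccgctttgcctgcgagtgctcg

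Over both strands, TTTGAA was found in 26 of the 41 member promoters (63.4%) and in 17.9% of all 32851 promoter windows of the same length. CCAAT was found in 31 of the 41 (75.6%), against 37.4% of all windows. Both motifs stood together in 24 (58.5%), against 6.95%. The letters TTCCCGC or TTGGCGC, forms of the E2F site, were found in 8 (19.5%), against 6.81% of all windows and 11.3% of the 14513 windows of tested genes. In those windows of tested genes TTTGAA stood in 12.1%, CCAAT in 37.2% and both in 4.9%. The CCAAT box read backwards, ATTGG, and TTGGCGC can share the letters TTGG, so a match to one can overlap a match to the other. Of the 32 TTTGAA matches, 24 lay within 60 bases of the start, and the plot of motif matches shows them crowding around it with the CCAAT boxes upstream. A match describes letters in a window and not a bound site. The *Fzr1* and *Pttg1* windows held no TTTGAA, but their RefSeq starts lie 146 and 270 bases from the gene starts in the count table, so these windows may not cover the starts that were counted. Of the 41 RefSeq starts, 35 lay within 100 bases of the gene start in the count table, and the same limit holds for the rest.

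**Figure D1:**
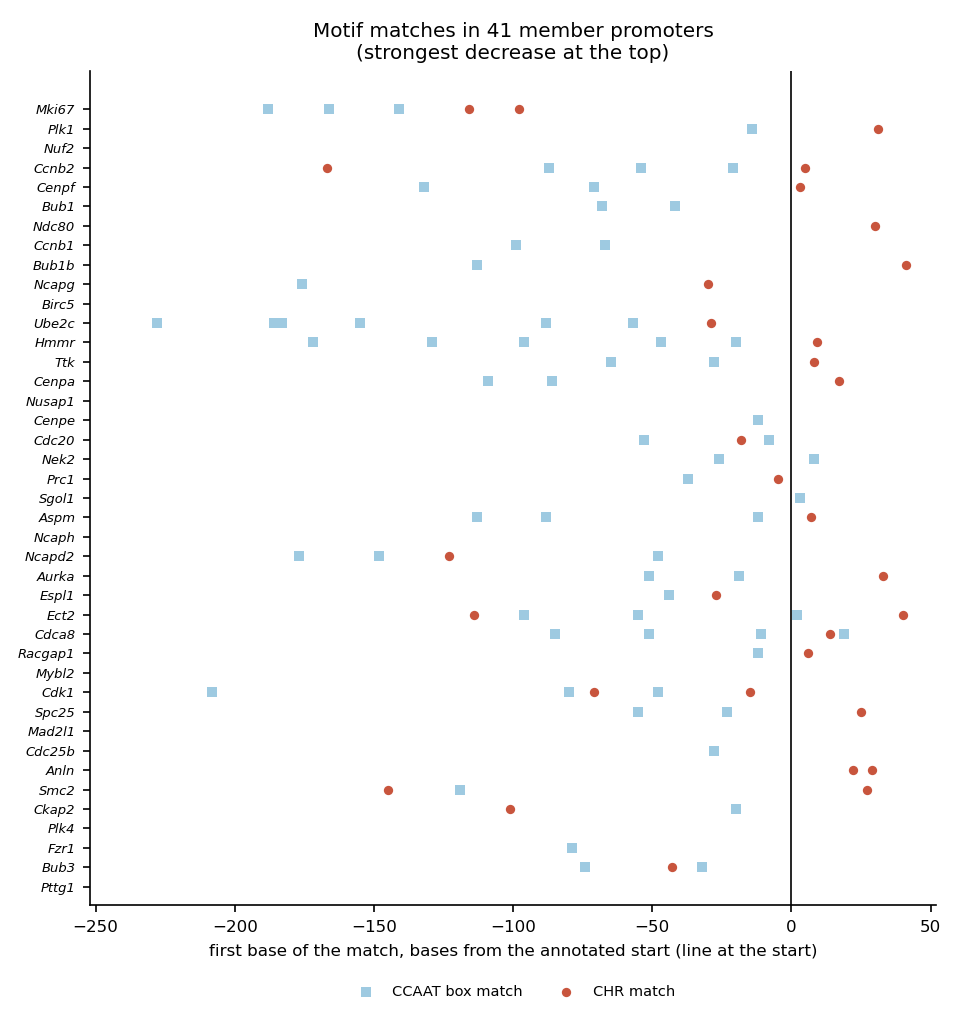
The first base of each CHR match (red circles) and CCAAT box match (blue squares), on either strand, is plotted in bases from the annotated start (0) for the 41 genes with a promoter window, ordered by log2 fold change with the lowest at the top. Of 32 CHR matches, 24 lie within 60 bases of the start, and matches are spread from genes at the top (*Mki67*, *Plk1*, *Ccnb2*) to *Bub3* near the bottom.

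Total counts lay between 50288454 and 82229553 per library. The gene with the fewest counts in senescent cells, *Spc24*, still had 26, 28 and 19, so no member was limited by a count of 0. Replicates differed by more than sampling noise in both groups, and senescent replicate 3 stood apart from the other two: the median squared difference was 14.5 and 19.9 times the sampling noise against replicates 1 and 2, and 2.14 times between those. Control replicate 1 stood apart to a smaller degree, at 4.66 and 4.13 times against replicates 2 and 3, with 1.74 times between those. Some results are also given without senescent replicate 3, but not every result that it moves. Among arrest genes, *Cdkn1a* (p21) was 123 ± 2.01 CPM in the control libraries and 620 ± 16.3 CPM in the senescent libraries (mean ± SD, n = 3 in each). *Cdkn2a*, the gene of p16, was 1.20 ± 0.0738 and 4.499 ± 1.503 CPM, counted per gene and so not for p16 transcripts alone. *Cdkn2b* (p15) was 4.28 ± 0.242 and 14.5 ± 0.897 CPM. The nuclear lamina gene *Lmnb1*, which is lost in senescence, was 79.4 ± 1.85 and 6.76 ± 0.285 CPM. CPM are counts scaled to a common library total, here after TMM scaling.

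The 50 genes together held 0.493%, 0.476% and 0.479% of all counts in the 3 control libraries and 0.0444%, 0.0436% and 0.0454% in the 3 senescent libraries. All 50 passed the filter on low counts. In senescent cells 49 fell and 1, *Pttg1*, rose (edgeR quasi-likelihood test, adjusted p under 0.05 over 17589 genes), where 34.1% of all tested genes fell and 36.2% rose. The same 49 had every senescent library below every control library, as did 37% of all tested genes. With an unadjusted p under 0.05 and a change of more than 1 on the log2 scale, 48 were lower, against a background of 12.3%. The median log2 fold change over the 50 was -4.46, and over all tested genes 0.01. Only 0.87% of tested genes lay below -4 on the log2 scale, 153 genes in all, and 32 of these were members. In bulk RNA, fewer dividing cells and less RNA per cell cannot be told apart.

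The decrease was steep for most members and shallow for a few. The median level left in senescent cells was 4.54% of the control mean. Under 2% was left of *Plk1*, *Mki67* and *Spc24*, 2 to 3% of 9 genes, 3 to 5% of 16, 5 to 10% of 8 and 10 to 25% of 10. *Lin9* and *Fzr1* kept between 25 and 50%, and *Bub3* and *Pttg1* more than that.

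**Figure D2:**
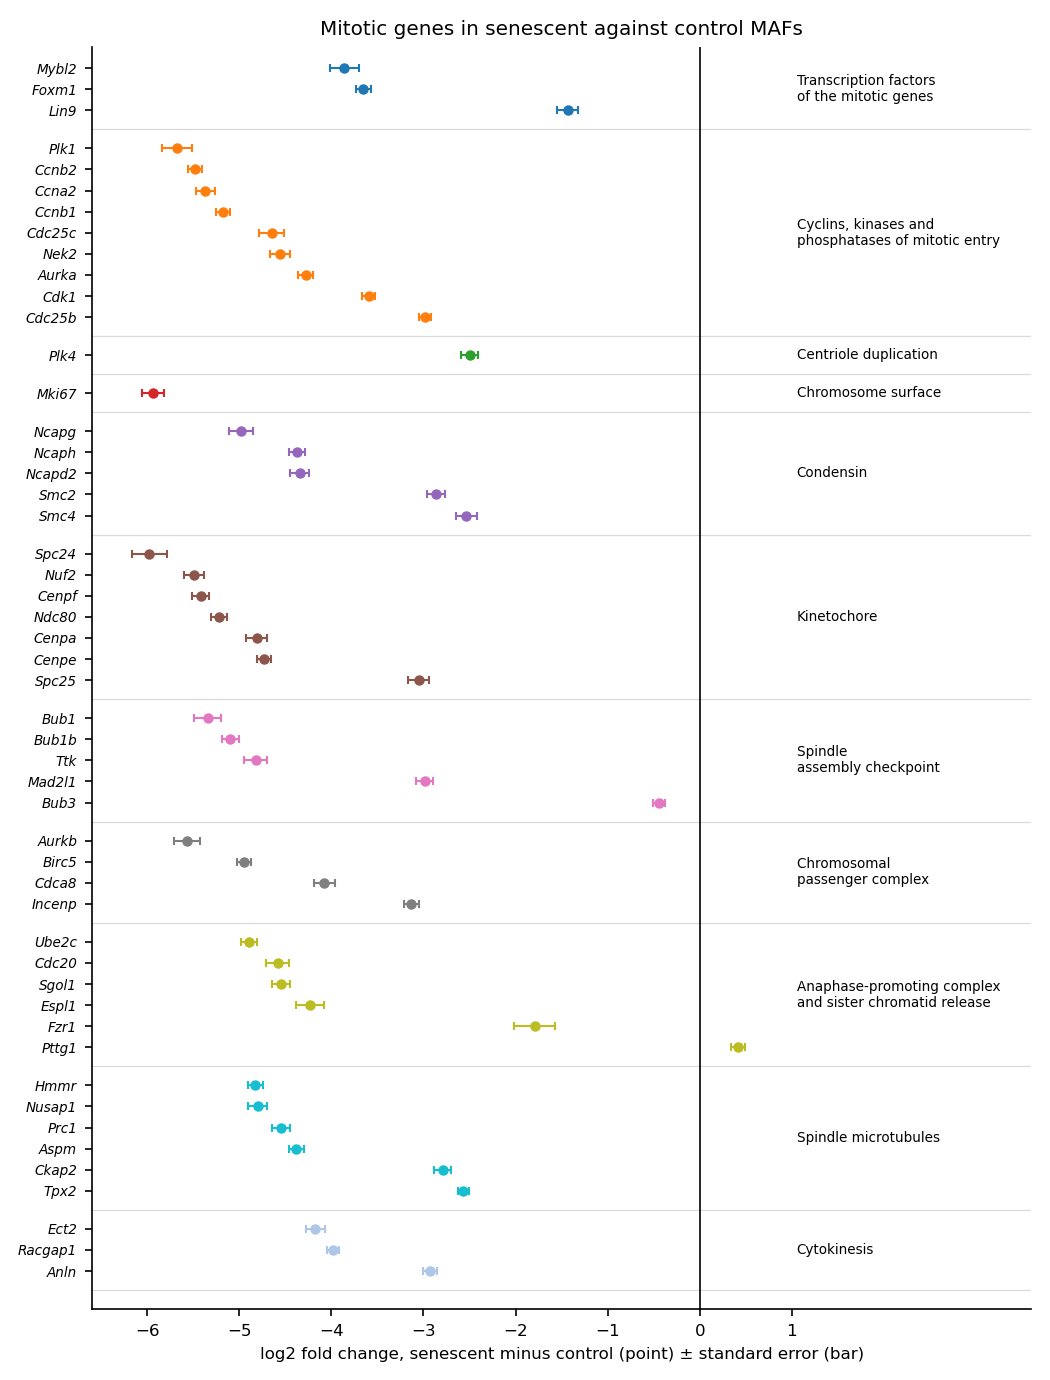
Points show the log2 fold change of senescent against control MAFs for the 50 genes, grouped by role, and bars its standard error (3 libraries in each group). Of the 50 genes, 49 lie left of 0, from *Spc24* at -5.98 to *Bub3* at -0.44, and *Pttg1* lies right of it at 0.42.

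The transcription factors of these genes fell to different degrees. *Foxm1*, which drives the G2 and mitotic genes, was 98.1, 99.2 and 100.0 CPM in the control libraries and 7.87, 8.67 and 7.12 CPM in the senescent libraries. That is a log2 fold change of -3.65 ± 0.0844 (SE, adjusted p = 2.76e-08). *Mybl2*, whose product joins MuvB in S phase, fell by 3.86 on the log2 scale, to 6.93% of control. *Lin9*, a MuvB subunit that is present in the silent and the active complex alike, read 14.2, 13.7 and 14.1 CPM in control cells, and 4.998, 4.51 and 5.995 CPM in senescence, so 37.0% was left. The ratio of *Foxm1* to *Lin9* fell from 2.83 ± 0.0329 to 0.62 ± 0.349 on the log2 scale (mean ± SD, n = 3 in each), with no overlap between groups. The exact permutation test gave p = 0.1, which is the smallest p that 3 against 3 can give. The same p holds for each of the 9 pairs of members compared in this way, before and after Benjamini-Hochberg adjustment.

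At mitotic entry less was left of the cyclins, 2.10% to 2.91% in every senescent library, than of their kinase, 7.74% to 8.73%. *Cdk1*, the kinase that starts mitosis, was 171, 166 and 164 CPM in the control libraries and 12.9, 13.9 and 14.6 CPM in the senescent libraries (log2 fold change -3.60 ± 0.0678 SE). *Ccna2* (cyclin A2) went from 174, 167 and 167 CPM to 3.86, 3.66 and 4.72 CPM, a log2 fold change of -5.37. Its exons share 12.5% of their bases with *Exosc9* on the other strand. *Ccnb1* and *Ccnb2*, the B cyclins that activate CDK1, fell by 5.18 and 5.48 on the log2 scale. The log2 ratio of *Ccnb1* to *Ccnb2* moved by only 0.30 between groups, from 0.57 ± 0.0377 to 0.87 ± 0.0301.

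The other entry genes spanned a wide range. *Plk1*, the polo kinase that acts from entry to cytokinesis, was 64.4, 75.1 and 76.3 CPM in control cells, and 1.46, 1.70 and 1.08 CPM in senescence, with 1.97% left. *Plk4*, the related kinase that starts centriole duplication in S phase, kept 17.7% (log2 fold change -2.50 ± 0.0905 SE). The log2 ratio of *Plk1* to *Plk4* fell by 3.18, with no overlap between groups. Phosphatases that remove the inhibitory phosphates from CDK1 differed in the same way: *Cdc25c* kept 3.99% and *Cdc25b* 12.7%, and their log2 ratio fell by 1.67. Of the related *Cdc25a*, which is not among the members, 82.1% was left. *Cdc25c* had only 48, 49 and 76 counts in senescent cells, and 12.7% of its exon bases overlap *Gm3550* on the other strand. *Aurka*, the kinase of the spindle poles, and *Nek2*, which separates the centrosomes, fell by 4.28 and 4.55 on the log2 scale.

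*Mki67* encodes Ki-67, the coat of mitotic chromosomes that is used to stain dividing cells, and it was the most abundant member per length in control cells. It read 609, 584 and 575 CPM in the control libraries and 8.72, 8.77 and 11.3 CPM in the senescent libraries, so 1.63% was left (log2 fold change -5.94 ± 0.123 SE). In control cells it made up between 11.7% and 12.1% of the counts of the 50 genes, and in senescent cells between 2.02% and 2.56%.

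**Figure D3:**
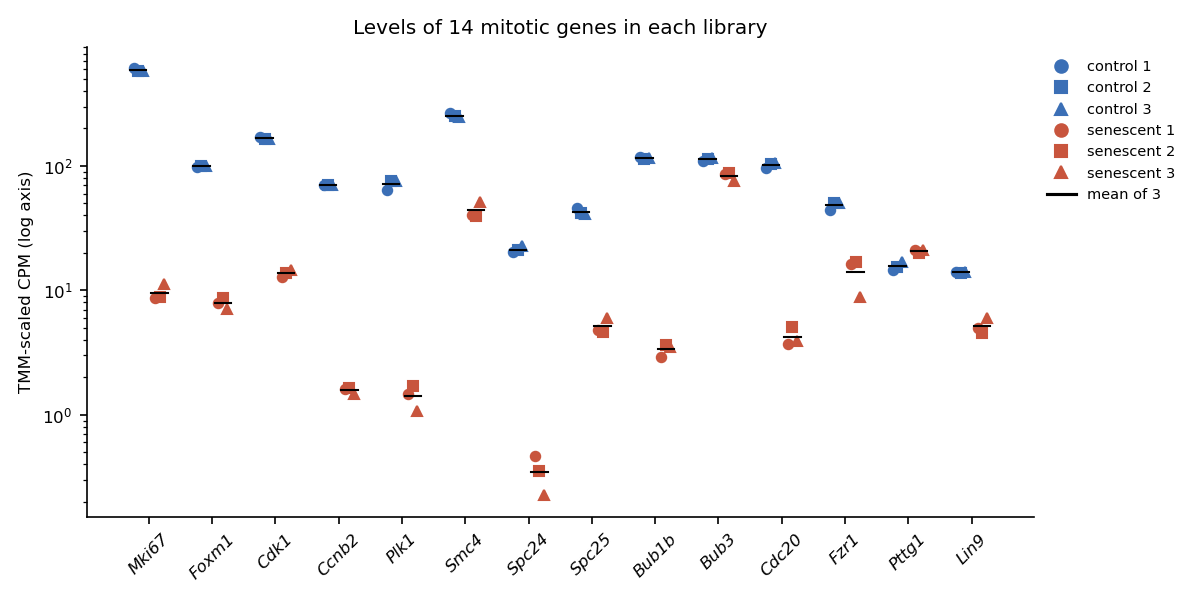
Levels of 14 of the genes in TMM-scaled CPM on a log axis, with control libraries in blue, senescent libraries in red, the replicate number as the symbol and the mean of 3 as a bar. *Mki67* falls from 575 to 609 CPM in control to 8.72 to 11.3 CPM, *Bub3* only from 113 to 83.0 CPM, and *Pttg1* rises from 15.6 to 20.8 CPM.

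The 5 condensin genes split by kind of subunit. The ATPases *Smc2* and *Smc4*, which also serve in condensin II, kept 13.7% and 17.3% of control. *Smc4* was 266, 251 and 246 CPM in control cells, and 40.1, 40.0 and 51.7 CPM in senescence. *Ncapd2*, *Ncapg* and *Ncaph*, the subunits found in condensin I alone, kept 4.93%, 3.13% and 4.83%. Every senescent value of these was under 6% of the control mean, and every senescent value of *Smc2* and *Smc4* was over 12%. Subunits of condensin II alone, which are not members, ranged widely: *Ncapg2* kept 8.24%, *Ncapd3* 25.4% and *Ncaph2* 46.6%. Of the exon bases of *Ncapg*, 13.4% overlap *Lcorl* on the other strand.

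Kinetochore genes had a median log2 fold change of -5.22 over 7 genes, the lowest of the groups with 3 or more members. *Cenpa*, the histone variant that marks the centromere, fell by 4.81 on the log2 scale, and *Cenpe* and *Cenpf*, a motor and a scaffold of the outer kinetochore, by 4.73 and 5.42. The NDC80 complex, which grips the microtubule, has 4 subunits, and they did not fall alike. *Ndc80* and *Nuf2* kept 2.67% and 2.22%. *Spc24* was 20.3, 20.9 and 22.7 CPM in the control libraries and 0.469, 0.353 and 0.225 CPM in the senescent libraries, the lowest log2 fold change of the 50 at -5.98 ± 0.188 (SE). Without senescent replicate 3 it was -5.71, and *Mki67* was then the lowest at -6.07. *Spc25*, the partner of SPC24, was 45.6, 41.5 and 41.5 CPM in control cells, and 4.78, 4.64 and 6.02 CPM in senescence, with 12.0% left. Every senescent library lay below every control library for all 4, as for 37% of all tested genes. The log2 ratio of *Ndc80* to *Spc24* rose by 0.74, and by 0.41 without senescent replicate 3.

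Genes of the spindle assembly checkpoint ranged from a deep to a slight decrease. *Bub1*, *Bub1b* and *Ttk* (the kinase MPS1) fell by 5.34, 5.10 and 4.82 on the log2 scale. *Mad2l1* (MAD2), which is built into the complex that inhibits the APC/C, kept 12.6%. *Bub3*, which carries BUB1 and BUBR1 (the product of *Bub1b*) to the kinetochore, was 110, 113 and 116 CPM in the control libraries and 86.0, 87.2 and 75.8 CPM in the senescent libraries. Its decrease, a log2 fold change of -0.44 ± 0.0694 (SE, adjusted p = 6.68e-04), passed the test, and 73.6% was left. *Bub1b* was 118, 113 and 117 CPM in the same control libraries and 2.92, 3.63 and 3.52 CPM in the senescent libraries. The log2 ratio of their CPM, which is not scaled by length, was 0.04 ± 0.0542 in control and -4.63 ± 0.228 in senescent cells, a fall of 4.67 and the largest of the 9 pairs. The *Bub3* promoter printed above holds TTCAAA, the reverse complement of TTTGAA, 43 bases before the start and 2 CCAAT boxes beside it. The other printed promoters, of genes that fell more than 10-fold, hold TTTGAA in the direction of the gene, with CCAAT or ATTGG. Matches on the reverse strand also stood in the windows of *Ndc80*, *Ttk* and *Ube2c*, which fell more than 10-fold too. Per kilobase of exon, *Bub3* stood second among the 50 in control cells, at 54.9 CPM after *Mki67* at 58.5 and just above *Cdc20* at 54.7. In senescent cells it was at 40.4 and alone supplied between 17.1% and 20.5% of the counts of the 50 genes, against 2.18% to 2.36% in control.

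The chromosomal passenger complex corrects wrong attachments of chromosomes and later marks the site of division. Its kinase *Aurkb* was 55.5, 57.4 and 58.8 CPM in control cells, and 1.55, 1.02 and 1.11 CPM in senescence, with 2.15% left. *Birc5* (survivin) and *Cdca8* (borealin) kept 3.23% and 5.95%, and the scaffold *Incenp* 11.4%. Relative to *Incenp*, *Aurkb* fell by 2.43 on the log2 scale. In log2 units the ratio of the 2 Aurora kinase genes, *Aurka* to *Aurkb*, was 0.00 ± 0.0278 in control and 1.28 ± 0.271 in senescent cells.

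The genes of the APC/C and of chromatid release held 2 of the 4 members with the most left. *Cdc20*, the activator of the APC/C in mitosis, was 96.4, 105 and 105 CPM in the control libraries and 3.70, 5.11 and 3.91 CPM in the senescent libraries (log2 fold change -4.58 ± 0.128 SE). *Fzr1* (CDH1), which takes over after mitosis and stays active in G1 and in resting cells, was 44.6, 50.6 and 50.6 CPM in control cells, and 16.4, 16.9 and 8.85 CPM in senescence. Replicate 3 was the low one, with 18.2% of control left against 33.7% and 34.8%, and the log2 fold change of -1.79 ± 0.225 (SE) became -1.54 without it. The log2 ratio of *Cdc20* to *Fzr1* in CPM was 1.07 ± 0.0354 in control and -1.68 ± 0.486 in senescent cells. Per kilobase of exon, *Cdc20* stood at 54.7 ± 2.64 and *Fzr1* at 10.8 ± 0.775 CPM in control (mean ± SD, n = 3), and at 2.27 ± 0.408 and 3.13 ± 1.01 CPM in senescent cells, where the order of the 2 genes rested on the library. *Fzr1* was above *Cdc20* in senescent replicates 1 and 2, at 3.65 and 3.77 against 1.98 and 2.74 CPM per kilobase, and below it in replicate 3, at 1.97 against 2.09. *Ube2c*, the ubiquitin-conjugating enzyme of the APC/C, kept 3.36%, although 22.8% of its exon bases overlap *Tnnc2*, which had at most 9 counts in any library.

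*Pttg1*, which encodes securin, the inhibitor of separase, was the single gene that rose. It read 14.6, 15.4 and 16.8 CPM in the control libraries and 21.1, 20.1 and 21.2 CPM in the senescent libraries, a log2 fold change of 0.42 ± 0.0779 (SE, adjusted p = 1.73e-03). Over all alternative settings that give it a value, its log2 fold change stayed between 0.37 and 0.49. Separase itself, *Espl1*, fell by 4.23 on the log2 scale, and *Sgol1* (shugoshin), which guards cohesin at the centromere, by 4.54. *Pttg1* was among the lowest members in control cells per kilobase, 47th of 50 at 7.79 CPM, and was second to *Bub3* in senescent cells at 10.4. Neither *Bub3* nor *Pttg1* passed the rule that also asks for a change over 1 on the log2 scale.

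Among the spindle genes, *Nusap1*, *Hmmr*, *Aspm* and *Prc1* kept between 3.51% and 4.80% of control. *Prc1*, which bundles the microtubules of the central spindle, was 229, 220 and 225 CPM in control cells, and 8.95, 8.81 and 11 CPM in senescence, and 11.1% of its exon bases overlap *Rccd1*. *Tpx2*, the activator of Aurora A on the spindle, and *Ckap2* kept 16.9% and 14.4%. *Tpx2* was 172, 169 and 166 CPM in the control libraries and 27.9, 27.7 and 29.95 CPM in the senescent libraries. In cytokinesis, *Ect2* and *Racgap1*, which switch on RhoA at the furrow, kept 5.53% and 6.33%. *Anln* (anillin), a scaffold that binds actin and septins, kept 13.1%, with 31.3, 28.9 and 34.5 CPM left of 243, 240 and 238 CPM.

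The median log2 fold change was -4.46 for the 26 genes with TTTGAA in the window and -4.54 for the 15 without it, of which *Ccnb1*, *Plk4*, *Cenpe* and *Birc5* held the other form, TTTAAA. For either form the medians were -4.57 over 30 genes and -4.37 over 11, and for TTTGAA in the last 150 bases of the window -4.57 over 24 and -4.37 over 17. For CCAAT the medians were -4.55 over 31 genes and -4.12 over 10. In the last 150 bases they were -4.54 over 27 and -4.59 over 14, so the gap was not kept.

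The members varied more between senescent than between control libraries, but most had far fewer counts there, which adds counting error. The part of counting error in this spread was not tested. The coefficient of variation of a member over the 3 libraries had a median of 3.39% in control and 11.8% in senescent cells, and the widest was that of *Spc24* in senescent cells, at 35.0%. Senescent replicate 3 was the highest of the 3 for 28 members, replicate 2 for 12 and replicate 1 for 10. Over all tested genes, replicate 3 was the highest for 45.1%. Among control libraries, replicate 1 was the highest for 29 members and for 39.2% of all tested genes. In replicate 3, 5 members were at most 0.8 times the mean of the other two (*Mybl2*, *Plk1*, *Spc24*, *Fzr1*, *Espl1*), and 7 were at least 1.25 times that mean (*Lin9*, *Ccna2*, *Mki67*, *Smc4*, *Ncapg*, *Spc25*, *Bub1*). The GC content of the longest transcript was 52.9% to 59.9% for the 5 and 34.8% to 46.6% for the 7. Across the 50 genes, which share their libraries and are not independent replicates, GC content and the ratio of replicate 3 to the other two had a Spearman rho of -0.825, and across 16145 tested genes -0.768. These limits and the measure of GC content were chosen after the values were seen. Without replicate 3 the median log2 fold change of the members was -4.45, with 49 lower and 1 higher as before.

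**Figure D4:**
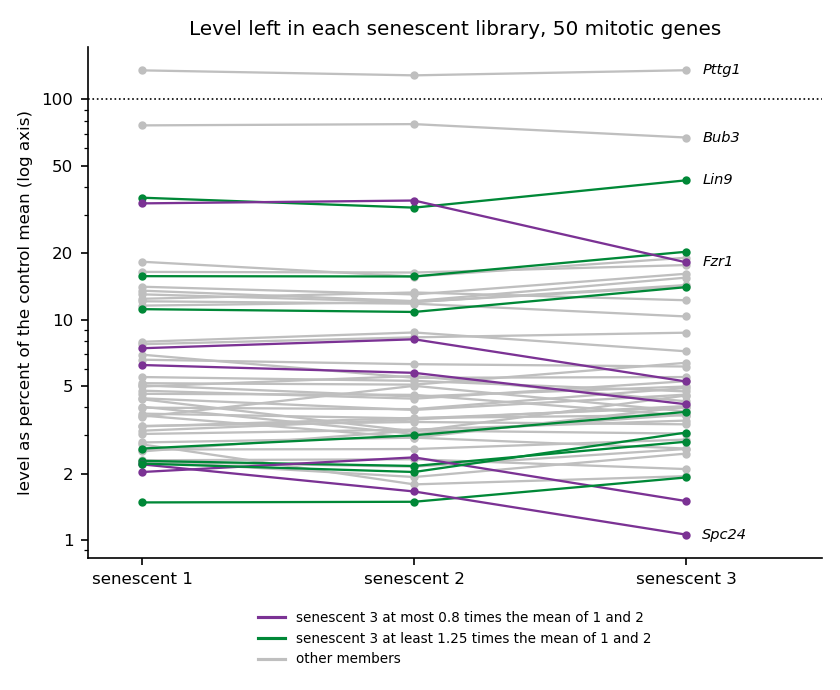
The level of each of the 50 genes in each senescent library is given as a percent of the control mean on a log axis, and lines join the values of 1 gene. The 5 genes drawn in purple are lower in senescent replicate 3 (*Fzr1* 33.7%, 34.8% and 18.2%), the 7 in green are higher there, and *Bub3* and *Pttg1* lie above all others in every library.

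The wider division machinery was followed through 137 further genes in 8 lists, of which 100 fell, 16 rose and 21 did not pass the test. Their median log2 fold change was -0.91, against -4.46 for the members. For comparison, 34.1% of all tested genes fell and 36.2% rose. The lists closest to the members were those of the centromere and kinetochore. In centromere assembly 16 of 18 genes fell and none rose (median -2.66), led by *Cenpp* at -4.63 and *Oip5* (MIS18 beta) at -4.61, and the smallest change that passed the test was that of *Cenpt* at -0.91. Among outer kinetochore and checkpoint partners 15 of 17 fell (median -2.78), led by *Ska1* at -5.62 and *Knl1*, the platform that binds BUB3, at -5.24. *Zwint*, which binds KNL1, rose from 81.3 ± 0.302 to 177 ± 4.72 CPM (mean ± SD, n = 3 in each), a log2 fold change of 1.12.

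Of 15 genes that brake or assist CDK1, 10 fell and 4 rose (median -1.49). *Cdkn3* and *Pkmyt1*, the kinase that holds CDK1 inactive, were at -5.16 and -4.44, and *Ppp2r2a*, a subunit of the phosphatase PP2A, was at 0.67. In condensin II and cohesin 12 of 17 fell and 1 rose (median -0.61). *Esco2* and *Sgol2a*, which act on cohesin in S phase and at the centromere, were at -5.63 and -4.15, and *Esco1*, the relative of *Esco2*, was at 0.40. All 22 genes of the centrosome and spindle pole passed the test, 21 lower and 1 higher, with a median of -1.08. *Tacc3* and *Stil* were at -3.49 and -3.11, and *Haus2*, of the augmin complex, was at 0.49.

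The medians of the remaining lists lay closer to 0. Among MuvB and DREAM subunits 6 of 11 fell and 1 rose, with a median of -0.31. *Rbl1* (p107) was at -2.26, *Tfdp2* at -0.89 and *Lin52* at 0.36. In the APC/C core 12 of 16 fell and 1 rose, with a median of -0.45, and the APC/C inhibitor *Fbxo5* (EMI1) was at -3.56, far from *Anapc5* at -0.98. *Anapc10*, at 0.30, did not pass the test when control replicate 2 or 3 was left out. In furrow and abscission 8 of 21 fell and 7 rose, near the shares over all tested genes (34.1% and 36.2%). The median there was -0.14, with a range from -5.28 to 1.26. *Cit* (citron kinase) and *Cep55* were at -5.28 and -4.31. *Rock2*, a RhoA effector kinase, rose from 246 ± 9.27 to 591 ± 84.8 CPM, a log2 fold change of 1.26.

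**Figure D5:**
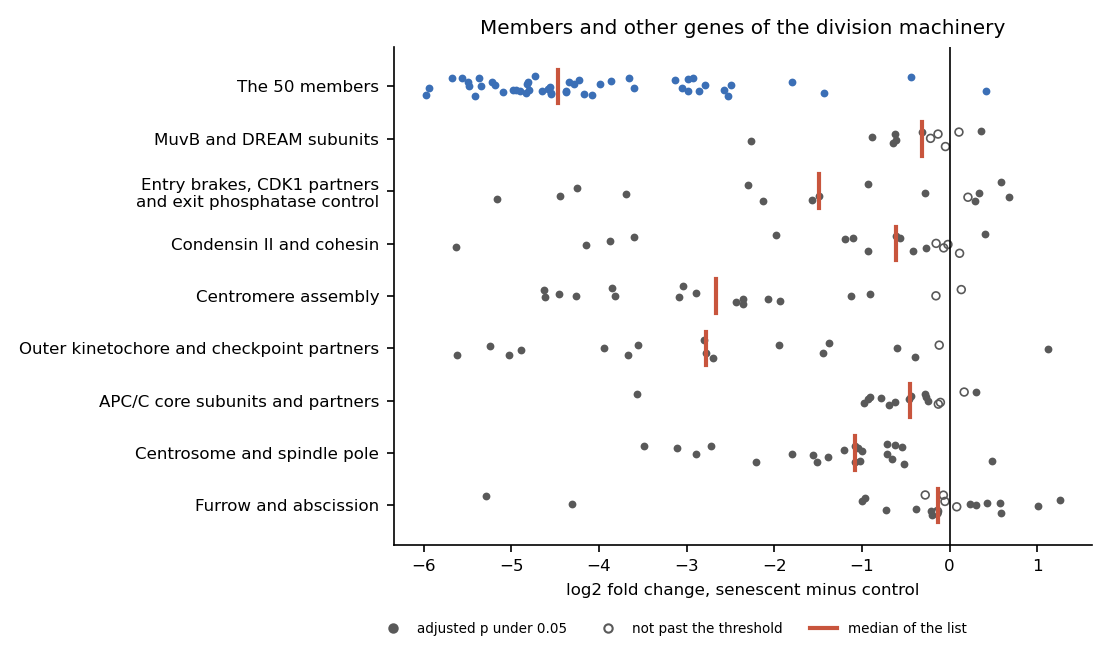
Each point is the log2 fold change of 1 gene, senescent minus control, for the 50 members (blue) and 8 lists of other division genes (grey), filled where the adjusted p is under 0.05, and red bars are medians. The medians run from -4.46 for the members through -2.78 and -2.66 for the kinetochore and centromere lists to -0.14 for furrow and abscission.

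Markers of other cells of the ear moved with the groups as well. Fibroblast markers summed to between 65130 and 67340 CPM in control cells, and between 48360 and 54030 CPM in senescence. *Fn1* alone held most of both sums, with means of 45660 and 43860 CPM, and did not pass the test. Of the 12 fibroblast genes 7 fell and 3 rose. The background for this and the other marker lists is that 34.1% of all tested genes fell and 36.2% rose. *Col1a1* went from 4435 to 763 CPM and *Dcn* from 56.6 up to 643 CPM. Cartilage markers were high in control cells: the 10 genes summed to between 7201 and 7677 CPM there and to between 620 and 702 CPM in senescent cells, and all 9 that were tested fell, *Col2a1* from 2717 to 168 CPM and *Acan* from 1854 to 131 CPM. The summed macrophage, endothelial and keratinocyte markers were low, and higher in senescent cells. The sums lay between 8.56 and 9.40 CPM in the control libraries and 19.7 and 22.5 CPM in the senescent libraries for macrophages, with all 7 genes higher. For endothelium they lay between 2.55 and 2.93, and 8.17 and 8.71 CPM. For keratinocytes they lay between 16.4 and 17.1, and 30.4 and 31.0 CPM, where 4 of 7 tested genes rose and 1 fell. *Ivl* held no count in control and was 13.97 CPM in senescent cells, *Trp63* fell from 13.2 to 4.17 CPM, *Krt5* and *Krt10* did not pass the test, and the defining *Krt14* was under 0.1 CPM in both groups. The sums of skeletal muscle and of Schwann cell and melanocyte markers overlapped between groups or differed by little, at 15.6 to 20.9 against 15.0 to 27.7 CPM and at 52.3 to 57.1 against 46.8 to 51.9 CPM. The part of these cells in the results for the mitotic genes was not tested.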

How the data were processed

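The authors made stranded mRNA libraries, ran the paired reads through MAPRSeq (STAR, build mm10), summed them per gene with Subread and deposited raw counts of 43346 genes. The strand setting and the handling of multi-mapping reads are not given in the sources used here, so overlapping genes are uncertain. A pseudogene of a member, *Ccnb2-ps*, had 7 to 12 counts. Samples were grouped by their labels. Genes kept by filterByExpr (17589) were scaled by TMM and compared with edgeR's robust quasi-likelihood test (edgeR 4.0.16, R 4.3.3), two-sided, with Benjamini-Hochberg adjustment. Pairs of members were compared by exact two-sided permutation tests of log2 CPM ratios. Alternatives were RLE scaling, library totals, other filters, edgeR's exact test, DESeq2 1.42.0, limma-voom (limma 3.58.1), a replicate block, leaving out each library and a second call rule. On simulated data for this comparison (17216 genes, of which 194 were changed), the test recovered 193 of the 194 with 15 false calls. In the real data 34.1% of tested genes fell and 36.2% rose, and recovery with such shares was not tested. Recovery of changes as small as those of *Bub3* (-0.44) and *Pttg1* (0.42) was not tested separately. A total of 3 counts is what a count of 0 allows, counting error only. Promoters and GC content came from RefSeq and GENCODE tables of GRCm38. The members and lists were chosen with earlier results of these data known. Every member was named, and of each other list of division genes the 2 lowest and the highest called genes. Of the cell type markers, some genes of the fibroblast, cartilage and keratinocyte lists were named. The macrophage and endothelial sums differed between groups as well, but no gene of those lists was named. *Cdc25a*, *Ncapg2*, *Ncapd3* and *Ncaph2* were also named, beside related members.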

Additional observations from a re-analysis of the deposited data

How the results depend on the processing

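The 49 decreases and the increase of *Pttg1* held with RLE scaling, library totals, no filter, a minimum of 10 counts in each library, the exact test of edgeR, DESeq2, limma-voom and each library left out, and in 14 settings none of 700 log2 fold changes of single members changed its direction or its side of the threshold. The replicate numbers showed no clear pairing of the samples (correlations of same-numbered deviations of -0.145, 0.135 and -0.12). With 3 libraries in a group, such correlations cannot decide whether the samples were paired. A replicate block gave 49 members lower and 1 higher, with 5660 and 5964 of all tested genes. Asking for an unadjusted p under 0.05 and a fold over 2 gave 0 members higher, 2166 genes lower and 3134 higher over all genes, 1 lower and 0 higher for MuvB and DREAM, 0 higher for the brakes of entry, 7 lower and 0 higher for condensin II and cohesin, 1 lower and 0 higher for the APC/C, 0 higher for the centrosome, and 3 lower and 2 higher for furrow and abscission. Library totals alone gave 2 higher for MuvB and DREAM and for the APC/C and a median level left of 4.79%, and the filter of 10 counts gave 2 higher for the APC/C. Leaving out 1 library gave 0 to 1 higher for centromere assembly (1 without senescent replicate 3) and 0 to 2 for the APC/C (0 without control replicate 2 or 3, 2 without senescent replicate 3). In the last 150 bases of the promoter window 5 genes held an E2F form. The cause of these shifts was not tested. Groups of 3 cannot show a permutation p under 0.1, and outlying libraries were not tested for in groups of this size.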
